A study of Arabidopsis thaliana with 8 samples.

Results

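The genotype effect of hy5 was measured in Arabidopsis thaliana roots kept in medium without added hormone. The comparison sets the group hy5 Control (2 libraries) against the group WT Control (2 libraries), that is, 4 of the 8 libraries of the series. Its members were all expressed genes: estimated read counts were summed over the transcripts of each locus, and 22682 of 27628 loci had enough counts to be tested. The hy5 Control plants carried the hy5 genotype and the WT Control plants were wild type. The names of the deposited data carry COL for WT Control, and NAOH for both groups. The sources used here name neither the hy5 allele nor the number of plants per library, nor the accession beyond that COL label. All seedlings grew upright on solid half-strength Murashige and Skoog medium for a week. Shoots were then cut off with a scalpel, and the detached roots of both groups were placed in hormone-free liquid medium of the same strength, the vehicle control, for a time that was not stated. The other 4 libraries came from roots of both genotypes in the same liquid with 0.1 uM benzyladenine (BA), a cytokinin; hy5 BA against WT BA gives the same genotype comparison in other libraries, though all 8 libraries share 1 estimate of the spread. The labels do not tell whether the 2 libraries of a group were grown apart, so p-values measure the spread between these libraries, which may be technical.

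HY5 is a basic leucine zipper transcription factor that promotes development in the light, and seedlings without it stay partly dark-like when lit. In the dark the COP1-SPA ubiquitin ligase marks HY5 for degradation, and photoreceptors release it in the light. HY5 binds promoters at elements with an ACGT core, among them the G-box CACGTG, and known targets include flavonoid, chlorophyll and photosynthesis genes. In roots it is also known for effects on greening, root growth direction, lateral roots and nutrient uptake.

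Library totals were 33990803 and 33582201 estimated counts in hy5 Control and 33875892 and 30595295 in WT Control, and no gene took more than 0.470% of a control-medium library. The root check rested on 7 shoot and stomatal lineage genes: their summed level was 1.32 and 1.58 CPM (counts scaled to a common library total) in hy5 Control, against 1.52 and 1.43 CPM in WT Control, and the shoot stem cell gene WUS had no count in any of the 4 libraries. In hy5 Control 1, the share of transcripts whose estimate lay next to a whole number (at a distance above 0 and under 0.001) was 21.6%, against 1.37% in hy5 Control 2 and 1.34 and 1.53% in WT Control; hy5 BA 2 was like hy5 Control 1, at 23.5%. Counts of called genes are therefore also given without both libraries (the reduced set), for most lists where a count moved by over 1.5 times.

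Calls were made below an adjusted p of 0.05, with edgeR's quasi-likelihood test and Benjamini-Hochberg adjustment over all genes tested, and every log2 fold below is hy5 over WT in control medium with its standard error (SE), n = 2 libraries each. Of 22682 genes tested, 5696 (25.1%) were called: 3103 (13.7%) were higher in hy5 Control and 2593 (11.4%) were lower. All counts of called list members below by this test stand against these shares. Counts under other settings stand against the counts over all genes in that setting. In the reduced set 2079 were called higher and 1351 lower. With library size as the sole scaling (total scaling) the split was 2303 higher and 4263 lower, and the median log2 fold of all genes moved to -0.087 from -0.0010. The libraries of both groups did not overlap for 14283 genes (63.0%). Statements below that the libraries of a gene lay apart stand against this share. Most called differences were small, with a median absolute log2 fold of 0.53. At least 2-fold differences were called for 591 genes (2.61%) higher and 606 (2.67%) lower, and at least 4-fold differences for 110 (0.485%) higher and 199 (0.877%) lower. Whole roots were measured, so fewer cells of a type and less RNA per cell cannot be told apart in any of these results.

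**Figure D1:**
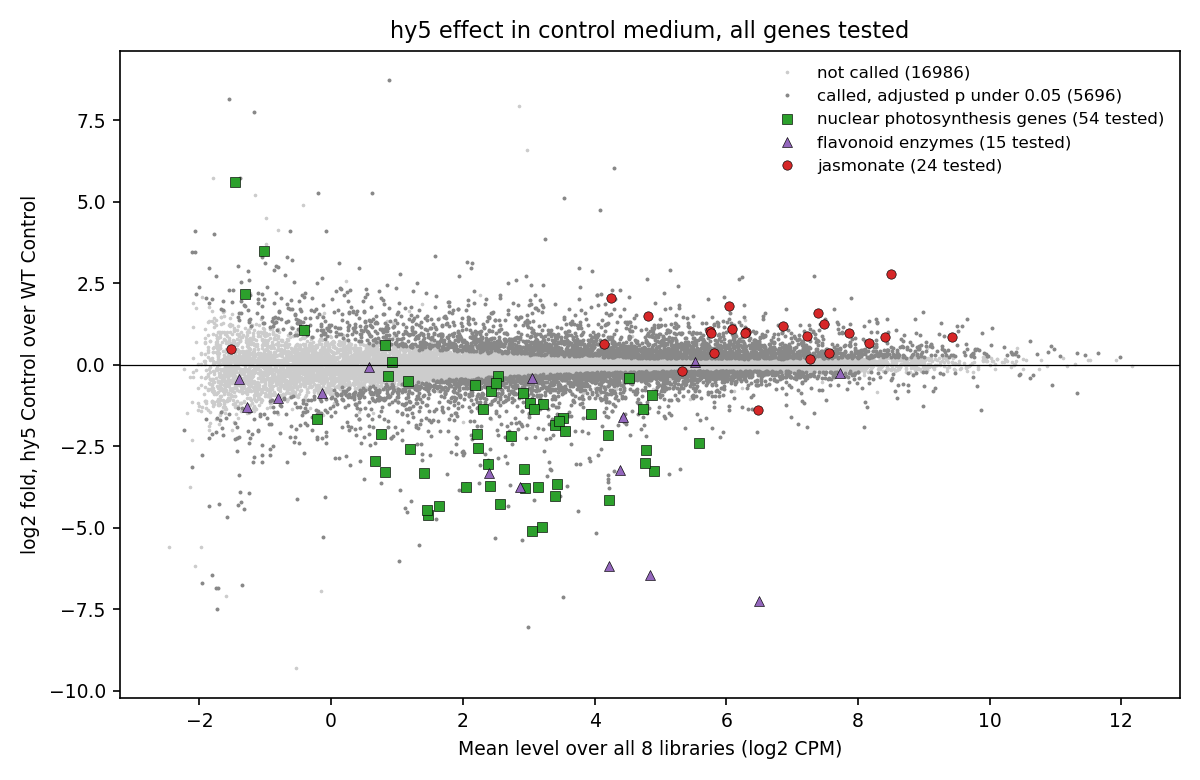
Log2 fold of hy5 Control over WT Control (vertical axis) against the mean level over all 8 libraries in log2 CPM (horizontal axis), 1 point per gene tested. Most of the 54 nuclear photosynthesis genes (squares) and 15 flavonoid enzymes (triangles) lie below 0, down to -7.25, and most of the 24 jasmonate genes (circles) lie above 0, up to 2.79.

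The genotype labels were checked first on HY5 itself (AT5G11260, chr5:3593335-3595073, minus strand, TAIR10.1), which fell. HY5 had 0.826 and 0.931 CPM in hy5 Control, against 32.4 and 31.1 CPM in WT Control, with a log2 fold of -5.17 ± 0.18 and an adjusted p of 3.67e-11. Its main transcript had a TPM, a level per length, of 0.788 and 1.18 in hy5 Control, against 41.8 and 41.1 in WT Control. HYH, the closest relative of HY5 and a partner in its binding, fell as well: it had 1.13 and 1.55 CPM in hy5 Control, against 10.8 and 10.9 CPM in WT Control (log2 fold -3.01 ± 0.16). Both libraries of hy5 Control lay far below both of WT Control for each gene.

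Light signalling genes were called lower more often than higher. Of 45 light signalling and photoreceptor genes tested, 22 were called lower and 6 higher, with a median log2 fold of -0.30, against -0.0010 over all genes tested. With 1 library left out in turn, 19 to 22 were lower; the count of higher genes was 2 without hy5 Control 1 or hy5 Control 2 and 3 without WT Control 2. The reduced set had 2 higher and 19 lower, and total scaling gave 3 higher and 28 lower.

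Among photoreceptors, CRY3, a cryptochrome of the DASH type in organelles, fell the most, with 1.16 and 1.09 CPM in hy5 Control, against 25.2 and 25.0 CPM in WT Control (log2 fold -4.48 ± 0.13, adjusted p 2.24e-12). The phytochromes, red and far-red light receptors, fell less: PHYD by 0.86, PHYB by 0.61 and PHYA by 0.45 on the log2 scale. The phototropin PHOT1 had 32.8 and 31.9 CPM in hy5 Control, against 51.6 and 53.7 CPM in WT Control. The cryptochrome CRY1 fell by 0.30, while the UV-B receptor UVR8 at -0.12 ± 0.069 and the blue-light receptor CRY2 at -0.13 ± 0.071 were not called (adjusted p 0.23 and 0.204). The photoreceptors that were called in this list were all lower, with log2 folds between -4.48 and -0.30.

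Some members that restrain light signalling, named here after their values were seen, were called lower. RUP1, which switches the UV-B receptor off, had 0.796 and 0.776 CPM in hy5 Control, against 4.01 and 3.87 CPM in WT Control. Its relative RUP2 had 1.35 and 1.52 CPM in hy5 Control, against 3.102 and 3.68 CPM in WT Control. SPA4 and SPA3, partners of COP1, had log2 folds of -2.29 ± 0.15 and -2.16 ± 0.13, and SPA1 one of -0.46 ± 0.077. COP1 itself had 29.7 and 26.9 CPM in hy5 Control, against 36.9 and 36.5 CPM in WT Control (log2 fold -0.38 ± 0.073). For each of these 6 genes both hy5 libraries lay below both WT libraries, whereas BBX25, also known as a repressor of light responses, was called higher (0.34 ± 0.092). The libraries did not overlap for 41 of the 45 genes of this list tested, against 63.0% of all genes tested. SPA4 and SPA3 overlap other annotated genes, and no source states the libraries' strand setting, so reads of the partners cannot be told apart.

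HFR1, a helix-loop-helix factor that acts with HY5 in the light, had 0.888 and 1.09 CPM in hy5 Control, against 14.6 and 10.8 CPM in WT Control (log2 fold -3.68 ± 0.24). The B-box factors BBX22, BBX24 and BBX20, which act with or against HY5, had log2 folds of -0.99 ± 0.087, -0.97 ± 0.072 and -0.95 ± 0.15, and BBX21, an activator of HY5 transcription, one of -0.30 ± 0.071. The 6 genes called higher included BBX31 with 1.78 and 2.11 CPM in hy5 Control, against 0.966 and 0.698 CPM in WT Control. PAR1, an inhibitor of phytochrome-interacting factors, had 8.48 and 7.02 CPM in hy5 Control, against 4.07 and 3.33 CPM in WT Control. PIF4, such a factor, had 2.42 and 2.82 CPM in hy5 Control, against 1.76 and 1.11 CPM in WT Control. The other 3, GBF1, FHL and BBX25, had log2 folds below 0.35, while BBX31, PAR1 and PIF4 had log2 folds of 1.21 ± 0.24, 1.06 ± 0.14 and 0.86 ± 0.26.

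**Figure D2:**
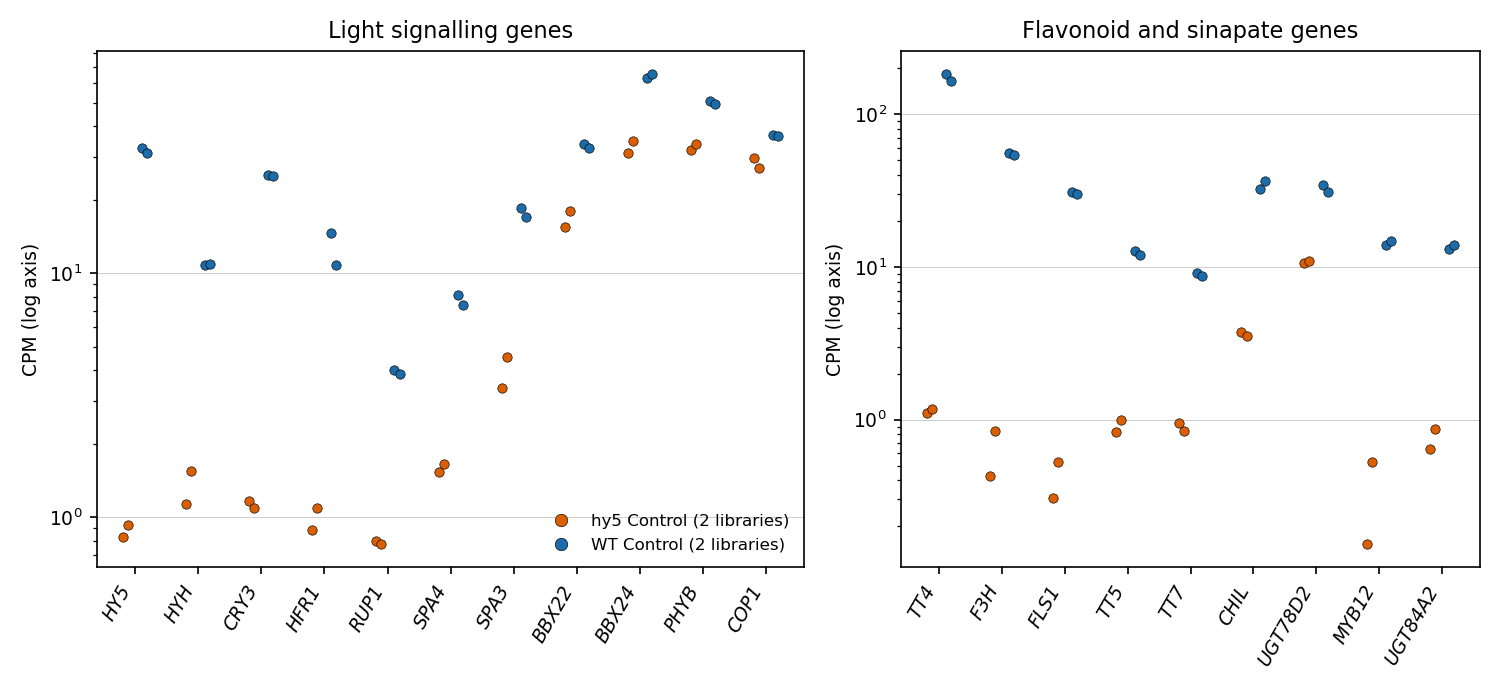
Level in CPM (vertical, log axis) of 11 light signalling genes (left panel) and 9 flavonoid and sinapate genes (right panel), 1 point per library, hy5 Control to the left of WT Control for each gene. The 2 hy5 libraries lie below the 2 WT libraries for every gene shown, with TT4 at 1.102 and 1.18 CPM in hy5 Control, against 183 and 165 CPM in WT Control. These genes were chosen with their values known, and the 6 light signalling genes called higher are not shown.

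The flavonol branch of flavonoid synthesis was far lower in hy5 roots. This pathway turns phenylalanine-derived coumaroyl-CoA into chalcone, flavanone, dihydroflavonol and flavonol, which are then joined to sugars. Of 15 flavonoid enzyme genes tested, 9 were called lower, 7 of them at least 2-fold, and 0 higher in edgeR; none was higher at an unadjusted p under 0.05 or with DESeq2 either. The list's median log2 fold was -1.29, against -0.0010 over all genes tested.

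TT4 (AT5G13930, chr5:4488476-4490264, plus strand), which encodes chalcone synthase, the entry step, had 1.102 and 1.18 CPM in hy5 Control, against 183 and 165 CPM in WT Control (log2 fold -7.25 ± 0.52, adjusted p 0.000799). The chalcone isomerase TT5 had 0.826 and 0.993 CPM in hy5 Control, against 12.7 and 11.99 CPM in WT Control. CHIL, a non-catalytic chalcone isomerase-like protein, had 3.73 and 3.54 CPM in hy5 Control, against 32.6 and 36.3 CPM in WT Control. Chalcone isomerase and its relative thus differed by log2 folds of -3.76 ± 0.16 and -3.24 ± 0.14, less than TT4. F3H, which makes dihydroflavonols, had 0.428 and 0.838 CPM in hy5 Control, against 56.1 and 54.3 CPM in WT Control (log2 fold -6.44 ± 0.28). TT7, the flavonoid 3'-hydroxylase, had 0.949 and 0.838 CPM in hy5 Control, against 9.16 and 8.72 CPM in WT Control (log2 fold -3.32 ± 0.19). FLS1, flavonol synthase, had 0.306 and 0.528 CPM in hy5 Control, against 31.1 and 30.2 CPM in WT Control (log2 fold -6.19 ± 0.19, adjusted p 4.88e-12). From TT4 to FLS1 every hy5 library lay below every WT library, with no overlap. Groups also stayed apart in 63.0% of all genes tested. The glucosyltransferase UGT78D2, which acts on flavonols and anthocyanidins, was less affected, with 10.6 and 11.0 CPM in hy5 Control, against 34.5 and 30.9 CPM in WT Control. TT4 and F3H overlap other annotated genes.

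Enzymes of the anthocyanin and proanthocyanidin branches had low levels in both genotypes. AT4G14090, a glucosyltransferase gene of the list, had 0.582 and 0.590 CPM in hy5 Control, against 1.02 and 1.14 CPM in WT Control and was called lower (adjusted p 0.0412). DFR had 0.275 and 0.373 CPM in hy5 Control, against 0.497 and 0.381 CPM in WT Control and was not called, and LDOX, at most 0.214 CPM in any of the 4 libraries, was not tested. The activator of flavonol genes MYB12 (AT2G47460, chr2:19476326-19479597, plus strand) was among the largest falls, with 0.153 and 0.528 CPM in hy5 Control, against 14.0 and 14.7 CPM in WT Control and a log2 fold of -5.39 ± 0.29, which was -4.76 without hy5 Control 1 and -6.53 without hy5 Control 2. Its relatives were low in both groups: MYB11 had 0.306 and 0.435 CPM in hy5 Control, against 0.380 and 0.317 CPM in WT Control and was not called, and MYB111, at most 0.184 CPM, was not tested. Regulators of anthocyanin synthesis did not follow MYB12, with TTG1 at -0.11 ± 0.070, GL3 at -0.011 ± 0.18 and PAP2 at -0.065 ± 0.53, none called; EGL3 was called higher (0.42 ± 0.15, adjusted p 0.0476), a call lost without hy5 Control 1, hy5 Control 2 or WT Control 1, and also with DESeq2, total scaling, a minimum count of 50 or the 4 control-medium libraries alone.

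The step before the flavonoid branch behaved otherwise. Of 14 genes of phenylpropanoid entry and coumarin synthesis tested, 6 were called higher (3 without hy5 Control 2) and 2 lower. UGT84A2, a sinapate glucosyltransferase, fell and had 0.643 and 0.869 CPM in hy5 Control, against 13.0 and 13.8 CPM in WT Control (log2 fold -4.14 ± 0.25). 4CL3, the coumarate ligase linked to flavonoids, fell too, with 3.70 and 3.69 CPM in hy5 Control, against 14.4 and 14.4 CPM in WT Control (log2 fold -1.96 ± 0.12). The phenylalanine ammonia-lyases PAL3 and PAL4 rose, with log2 folds of 1.54 ± 0.19 and 0.94 ± 0.11, and PAL2 rose by 0.31 ± 0.078, while PAL1, at 1357 and 1535 CPM in hy5 Control, against 1346 and 1322 CPM in WT Control, was not called. F6'H1, which makes scopoletin, a coumarin, had 82.8 and 79.7 CPM in hy5 Control, against 50.9 and 47.5 CPM in WT Control.

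The 250 bases before the annotated start of 5 genes that fell are shown because each holds the G-box to which HY5 is known to bind. They are RefSeq sequence of the build TAIR10.1, read 5′ to 3′ on the gene's strand, with the G-box CACGTG in capitals. Their positions are chr5:4488226-4488475 for TT4, chr5:1563036-1563285 for CHIL, chr2:19476076-19476325 for MYB12 (plus strand each), and chr1:37872-38121 for LHY and chr3:8085670-8085919 for ELIP1 (minus strand each).
TT4: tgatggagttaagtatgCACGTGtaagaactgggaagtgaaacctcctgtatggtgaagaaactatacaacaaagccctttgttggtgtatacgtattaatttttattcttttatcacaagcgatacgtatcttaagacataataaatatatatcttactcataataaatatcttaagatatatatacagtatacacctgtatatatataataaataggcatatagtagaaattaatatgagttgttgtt
CHIL: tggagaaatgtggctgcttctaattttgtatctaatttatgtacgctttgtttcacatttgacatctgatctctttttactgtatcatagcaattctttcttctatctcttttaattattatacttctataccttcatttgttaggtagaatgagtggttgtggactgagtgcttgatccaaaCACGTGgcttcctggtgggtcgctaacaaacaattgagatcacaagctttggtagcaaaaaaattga
MYB12: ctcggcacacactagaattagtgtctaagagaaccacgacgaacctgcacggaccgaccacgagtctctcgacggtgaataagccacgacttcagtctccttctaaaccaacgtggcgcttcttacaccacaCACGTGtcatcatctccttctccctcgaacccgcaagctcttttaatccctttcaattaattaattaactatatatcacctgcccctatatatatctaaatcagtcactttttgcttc
LHY: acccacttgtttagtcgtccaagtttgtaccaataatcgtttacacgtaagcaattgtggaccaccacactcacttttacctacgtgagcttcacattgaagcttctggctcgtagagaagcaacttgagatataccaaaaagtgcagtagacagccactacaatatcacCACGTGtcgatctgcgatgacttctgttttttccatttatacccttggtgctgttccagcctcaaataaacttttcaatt
ELIP1: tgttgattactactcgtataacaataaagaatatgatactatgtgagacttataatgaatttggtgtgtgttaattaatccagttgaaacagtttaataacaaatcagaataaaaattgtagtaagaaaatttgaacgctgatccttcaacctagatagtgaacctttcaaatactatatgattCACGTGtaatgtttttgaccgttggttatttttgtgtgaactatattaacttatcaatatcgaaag
The G-box began 233 bases before the start in TT4, 67 in CHIL, 118 in MYB12, 80 in LHY and 66 in ELIP1. FLS1, TT5 and TT7 fell as well and held neither the G-box nor the hybrid element GACGTG or CACGTC in the same window, which says only that these letters are not in it. HYH, HFR1, GUN5, PSBR, RUP1, SPA3, SPA4 and EXPA1 also fell without either element. F3H and CRY3 fell and held the G-box, while AOS, JAZ8 and ASN1 rose and held it too. JAZ10, AOC1, TAT3, RAB18 and SWEET11 rose without either element.

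The motif was not confined to genes that fell. The G-box, which reads the same on both strands, was in 7.10% of the 22536 windows of tested genes, in 10.3% of genes called higher and in 7.74% of genes called lower. Among genes called at least 4-fold higher it was in 13.6% (15 of 110), and among those at least 4-fold lower in 14.1% (26 of 185). The hybrid element was in 6.25% of all windows, in 7.09% of genes called higher and in 8.69% of genes called lower, and in 4.55% (5 of 110) of those at least 4-fold higher and 11.9% (22 of 185) of those at least 4-fold lower. The core ACGT, which lies within both, was in 44.6% of all windows, 52.2% of genes called higher and 47.4% of genes called lower. It was in 61.8% (68 of 110) of those at least 4-fold higher and 49.7% (92 of 185) of those at least 4-fold lower. By list, the G-box was in 5 of 15 flavonoid enzyme windows, 11 of 54 photosynthesis windows, 10 of 45 light signalling windows and 5 of 24 jasmonate windows. In the same order, the core was in 7, 27, 28 and 19 of these windows.

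Most UV protection and repair genes fell. Of 6 tested, 4 were called lower and 0 higher in edgeR (1 at an unadjusted p under 0.05, 0 with DESeq2), with a median log2 fold of -1.32. ELIP1, an early light-induced protein of the thylakoid, had 0.918 and 0.962 CPM in hy5 Control, against 13.6 and 11.8 CPM in WT Control (log2 fold -3.75 ± 0.22). The photolyase gene AT1G12370, whose enzyme reverses pyrimidine dimers, had 2.204 and 1.86 CPM in hy5 Control, against 9.54 and 9.45 CPM in WT Control. SIG5, a plastid sigma factor that responds to blue light, had 2.79 and 2.89 CPM in hy5 Control, against 11.3 and 10.9 CPM in WT Control. The (6-4) photolyase gene UVR3 fell by 0.67 on the log2 scale. All 4 genes were lower in both hy5 libraries, whereas ELIP2, with 1.62 and 2.11 CPM in hy5 Control, against 1.93 and 1.55 CPM in WT Control, overlapped between genotypes. The remaining member had the highest log2 fold of the list, 0.70, and was not called. In 5 of the 6 genes the libraries did not overlap.

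Nuclear genes for photosynthesis were expressed at low levels in WT roots, and most fell further in hy5 roots. Of 54 tested, 43 were called lower, 37 of them at least 2-fold, and 0 higher in edgeR or DESeq2 and at an unadjusted p under 0.05 in edgeR; the median log2 fold was -2.12, against -0.0010 over all genes tested. With 1 library left out, 40 to 44 were lower. Called higher were then 3 without hy5 Control 1, and 5 in the reduced set. Summed over the list, levels were 158 and 214 CPM in hy5 Control, against 697 and 805 CPM in WT Control.

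Photosystem I genes lay among those that fell most. PSAD-1 had 0.214 and 0.714 CPM in hy5 Control, against 13.8 and 18.7 CPM in WT Control (log2 fold -5.12 ± 0.36). PSAH-1 had 0.0306 and 0.373 CPM in hy5 Control, against 4.42 and 5.68 CPM in WT Control (log2 fold -4.63 ± 0.37). PSAE-2 had 0.122 and 0.404 CPM in hy5 Control, against 5.44 and 5.27 CPM in WT Control (log2 fold -4.33 ± 0.28). The groups were far apart, yet in each of these genes hy5 Control 2 lay above hy5 Control 1. Without hy5 Control 1 the log2 folds were -4.50, -3.75 and -3.72, and without hy5 Control 2 they were -6.22, -7.20 and -5.42. PETE2, a plastocyanin that carries electrons to photosystem I, had 0.214 and 0.807 CPM in hy5 Control, against 14.8 and 17.8 CPM in WT Control (log2 fold -4.99 ± 0.28, -4.33 without hy5 Control 1 and -6.23 without hy5 Control 2). PSAH-1 and PSAE-2 overlap other annotated genes. A second gene of several of these proteins fell less. PSAD-2 had 3.58 and 3.79 CPM in hy5 Control, against 5.65 and 5.71 CPM in WT Control. PSAE-1 had 0.245 and 0.404 CPM in hy5 Control, against 2.34 and 2.79 CPM in WT Control. The plastocyanin gene PETE1, at 1.47 and 1.30 CPM in hy5 Control, against 1.96 and 1.55 CPM in WT Control, was not called.

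Genes of photosystem II, the light-harvesting antenna and carbon fixation fell as well. PSBR, a subunit near the oxygen-evolving complex, had 13.6 and 14.4 CPM in hy5 Control, against 75.6 and 71.7 CPM in WT Control (log2 fold -2.39 ± 0.083, adjusted p 8.44e-12). PSBO1, of the oxygen-evolving complex, had 6.52 and 7.76 CPM in hy5 Control, against 40.3 and 46.5 CPM in WT Control. The antenna gene LHCA3 had 1.07 and 1.96 CPM in hy5 Control, against 17.8 and 20.7 CPM in WT Control. All 3 genes were several-fold lower in both hy5 libraries. ATPC1, the gamma subunit of the plastid ATP synthase, had 0.582 and 0.590 CPM in hy5 Control, against 10.9 and 11.9 CPM in WT Control (log2 fold -4.28 ± 0.17). PETC, the Rieske protein, had 1.38 and 1.46 CPM in hy5 Control, against 12.6 and 13.3 CPM in WT Control. Rubisco activase, RCA, had 5.51 and 7.76 CPM in hy5 Control, against 28.6 and 30.1 CPM in WT Control, and the Calvin cycle genes GAPA and GAPB had log2 folds of -1.73 ± 0.11 and -1.37 ± 0.13. No hy5 library reached a WT library in any of these genes, and 63.0% of all genes tested also kept their groups apart.

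The 6 photosynthesis genes with a positive log2 fold, none of them called, were RBCS1B, RBCS2B, RBCS3B, CAB2, CAB3 and LHCB1.4. They are near-identical copies of other members, whose reads the counting can divide unevenly, and their levels are uncertain. RBCS3B, for example, had 0 and 2.14 CPM in hy5 Control, against 0.673 and 1.36 CPM in WT Control. The cause of the positive folds was not tested. In all 6, hy5 Control 2 was the highest of the 4 libraries.

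Chlorophyll and carotenoid synthesis followed in part, with 12 of 23 genes called lower and 2 higher (1 without hy5 Control 2; median log2 fold -0.52). GUN5, the large subunit of magnesium chelatase, had 2.51 and 3.51 CPM in hy5 Control, against 35.2 and 33.5 CPM in WT Control (log2 fold -3.51 ± 0.12, adjusted p 6.3e-12). CHLG, chlorophyll synthase, had 0.673 and 0.652 CPM in hy5 Control, against 7.61 and 8.92 CPM in WT Control (log2 fold -3.63 ± 0.18). CRD1, of the cyclase step, had 1.47 and 2.297 CPM in hy5 Control, against 15.7 and 19.7 CPM in WT Control. PORB, protochlorophyllide reductase, had 1.13 and 1.49 CPM in hy5 Control, against 7.40 and 10.3 CPM in WT Control. These 4 chlorophyll steps had log2 folds between -3.63 and -2.75, whereas HEMA1, at the start of tetrapyrrole synthesis, had 101 and 96.2 CPM in hy5 Control, against 108 and 109.9 CPM in WT Control and was not called. HEMA2, its paralog with a role outside photosynthetic tissue, rose, with 137 and 129 CPM in hy5 Control, against 71.5 and 63.4 CPM in WT Control (log2 fold 0.98 ± 0.080). Phytoene synthase, PSY, fell by 1.25 on the log2 scale, and the carotene hydroxylase BCH2 rose by 1.16 ± 0.26.

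Among 6 greening regulators tested 3 were called lower in edgeR and 2 in DESeq2. Called higher were 0 by both tools, and 0 at an unadjusted p under 0.05. GNC, a GATA factor that promotes greening, had no count in hy5 Control and 29 counts in WT Control, or 0.47 and 0.41 CPM. Against a floor of 3 counts over hy5 Control this is at least 9.55-fold lower. The sigma factors SIG6 and SIG1 fell by 0.62 and 0.53, and the greening factors GLK1 and GLK2, at 0.21 ± 0.47 and -0.16 ± 0.15, were not called.

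Transcripts of the chloroplast genome, sparse in libraries selected for poly(A), moved the same way. They made up 0.0258 and 0.0334% of counts in hy5 Control, against 0.0664 and 0.0554% in WT Control. Of 72 such genes tested, 48 were called lower and 0 higher in edgeR and DESeq2 (0 higher at an unadjusted p under 0.05); the lower count was 31 with DESeq2, 27 without hy5 Control 1, 31 without WT Control 1, and 25 in the reduced set. ATCG00020 had 3.18 and 2.297 CPM in hy5 Control, against 34.1 and 32.9 CPM in WT Control. Over all genes tested 11.4% were called lower. Of 73 mitochondrial genes tested, 12 were called lower (6 without WT Control 1) and 0 higher (0 higher at an unadjusted p under 0.05 and with DESeq2).

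**Figure D3:**
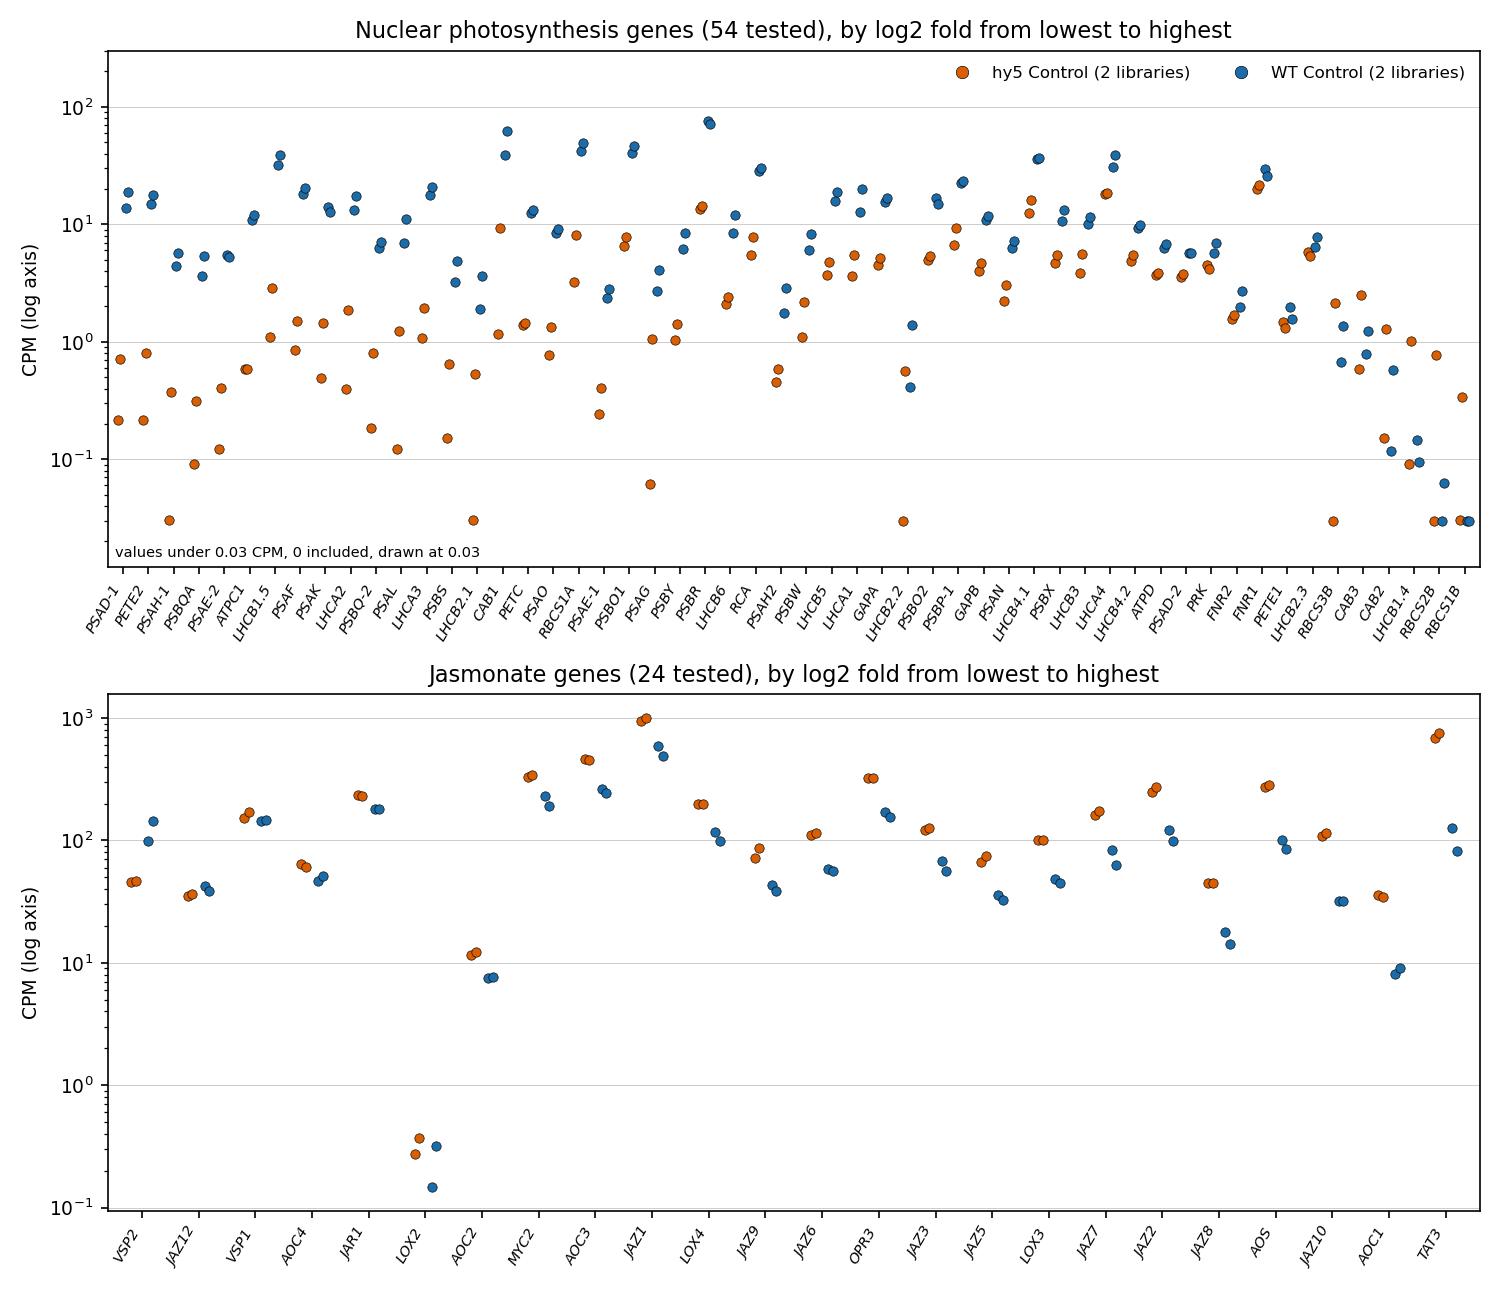
Level in CPM (vertical, log axis) of the 54 nuclear photosynthesis genes (top) and 24 jasmonate genes (bottom) tested, 1 point per library, hy5 Control to the left of WT Control for each gene, ordered by log2 fold. In the top panel 43 genes were called lower, and at the right end hy5 Control 2 stands above the other libraries; in the bottom panel 20 genes were called higher.

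Clock genes went both ways. LHY and CCA1 are the paired morning repressors of the clock. LHY fell, with 8.63 and 8.75 CPM in hy5 Control, against 39.6 and 37.3 CPM in WT Control (log2 fold -2.15 ± 0.084). CCA1 had 14.0 and 14.96 CPM in hy5 Control, against 39.5 and 36.6 CPM in WT Control (log2 fold -1.39 ± 0.078). PRR9, which follows them in the day, had 8.36 and 9.22 CPM in hy5 Control, against 19.5 and 20.3 CPM in WT Control (log2 fold -1.18 ± 0.095). ELF4, of the evening complex, had 17.0 and 15.7 CPM in hy5 Control, against 43.3 and 37.8 CPM in WT Control (log2 fold -1.31 ± 0.095). BOA, an evening factor related to LUX, rose, with 31.8 and 32.5 CPM in hy5 Control, against 20.9 and 19.0 CPM in WT Control, and GI rose by 0.41 ± 0.088. In all, 7 of 22 clock genes were called lower and 6 higher; with total scaling 11 were lower and 4 higher, in the reduced set 4 were lower and 4 higher, 4 were lower without hy5 Control 1, and 3 were higher without hy5 Control 2 or WT Control 2. The central gene TOC1, at 73.9 and 74.5 CPM in hy5 Control, against 86.9 and 80.7 CPM in WT Control, was not called. No source states the time of day of sampling.

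Jasmonate genes rose in hy5 roots. Jasmonate is the hormone of wounding and defence, made from plastid lipids through lipoxygenase, allene oxide synthase and allene oxide cyclase, and its JAZ repressors are themselves induced by it. Of 24 genes tested, 20 were called higher, 10 of them at least 2-fold, and 1 lower, with a median log2 fold of 0.97, against -0.0010 over all genes tested. The count of 20 higher was the same in every alternative run, though those runs were not checked for holding the same genes. Roots of both genotypes had been cut from the shoot.

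In synthesis, the lipoxygenase gene LOX3 had 101 and 101 CPM in hy5 Control, against 48.8 and 45.2 CPM in WT Control. LOX4, its relative, had 197 and 199 CPM in hy5 Control, against 118 and 98.5 CPM in WT Control. AOS, allene oxide synthase, had 274 and 282 CPM in hy5 Control, against 101 and 84.9 CPM in WT Control (log2 fold 1.58 ± 0.087, adjusted p 1.47e-09). The cyclase AOC1 had 35.9 and 34.6 CPM in hy5 Control, against 8.13 and 9.04 CPM in WT Control (log2 fold 2.04 ± 0.20). Another cyclase gene, AOC3, had 459.7 and 454 CPM in hy5 Control, against 261 and 246 CPM in WT Control. OPR3, the reductase that follows, had 321 and 325 CPM in hy5 Control, against 172 and 155 CPM in WT Control. In each of these genes both hy5 libraries lay above both WT libraries, and 63.0% of all genes tested also kept their groups apart. The cyclase genes are close copies of one another, so the split of reads between them is uncertain. JAR1, which joins jasmonate to isoleucine, rose less, by 0.37 ± 0.071 on the log2 scale, and LOX2, which is mainly a leaf enzyme, had 0.275 and 0.373 CPM in hy5 Control, against 0.146 and 0.317 CPM in WT Control and was not called.

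Among repressors and responses, JAZ10 had 108 and 114 CPM in hy5 Control, against 31.7 and 32.0 CPM in WT Control (log2 fold 1.803 ± 0.074, adjusted p 4.86e-11). JAZ8 had 44.7 and 45.2 CPM in hy5 Control, against 17.8 and 14.2 CPM in WT Control (log2 fold 1.49 ± 0.098). JAZ2, JAZ7, JAZ5, JAZ3, JAZ6, JAZ9 and JAZ1 rose by 0.86 to 1.25 on the log2 scale, and JAZ12, at -0.18 ± 0.075, was not called. MYC2, the main transcription factor of the response, had 332 and 343 CPM in hy5 Control, against 230.0 and 191 CPM in WT Control. TAT3, a tyrosine aminotransferase gene used as a jasmonate marker, had 693 and 753 CPM in hy5 Control, against 127 and 81.4 CPM in WT Control (log2 fold 2.79 ± 0.20, adjusted p 7.88e-05). Its neighbour AGL61 on the opposite strand was also among the largest rises, with 23.0 and 33.0 CPM in hy5 Control, against 4.68 and 2.82 CPM in WT Control; with the strand setting unknown, reads between them cannot be told apart. VSP2, a storage protein of the shoot, was the gene called lower, with 45.6 and 46.5 CPM in hy5 Control, against 99.3 and 144 CPM in WT Control (log2 fold -1.40 ± 0.33), a call lost when any of the 4 control-medium libraries was left out and in the reduced set; total scaling gave 2 lower genes. JAZ10 and MYC2 overlap other annotated genes.

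**Figure D4:**
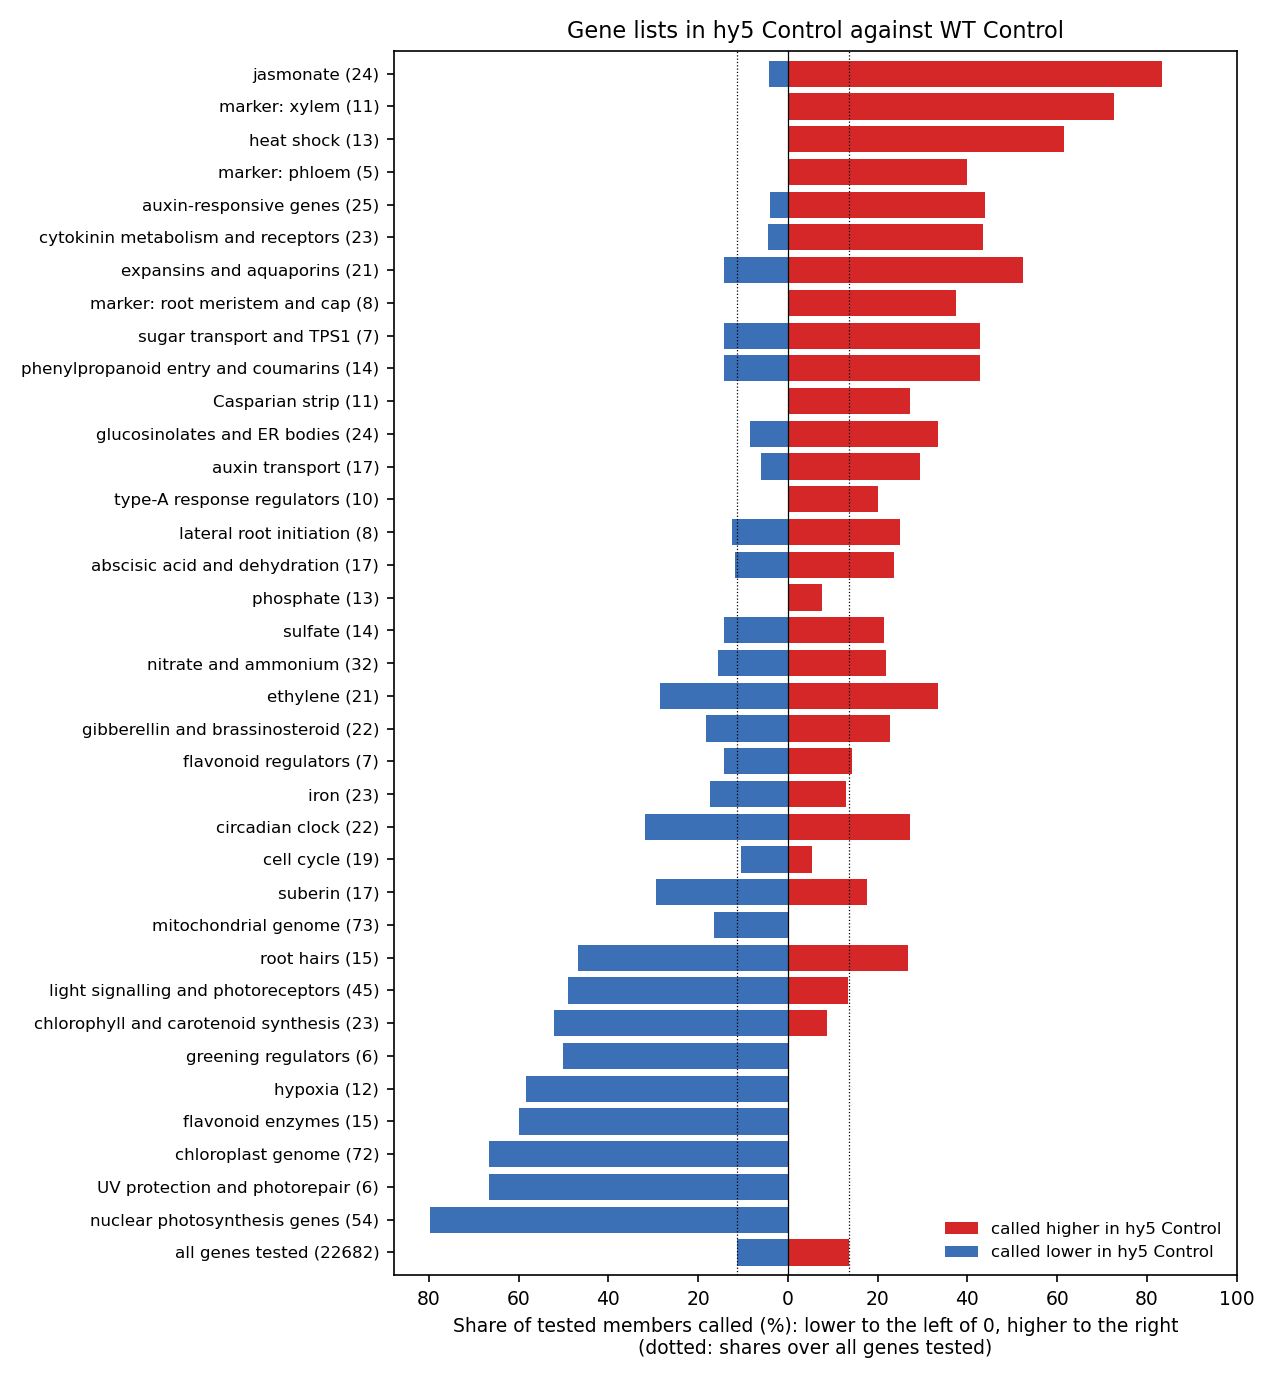
Share of tested members of each gene list called higher (right of 0) or lower (left of 0) in hy5 Control against WT Control, with the number tested in brackets and dotted lines at the shares over all genes tested (13.7% and 11.4%). The jasmonate list reaches 20 of 24 higher, and the nuclear photosynthesis list 43 of 54 lower.

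Ethylene genes went both ways, with 7 of 21 higher and 6 lower. The rises included genes of synthesis: the ACC synthases ACS5, ACS8 and ACS2 had log2 folds of 1.73 ± 0.16, 1.32 ± 0.086 and 1.21 ± 0.10, with ACS8 at 35.1 and 30.9 CPM in hy5 Control, against 13.0 and 13.6 CPM in WT Control. ACO1, an ACC oxidase gene, fell, with 37.0 and 46.8 CPM in hy5 Control, against 69.3 and 93.3 CPM in WT Control (log2 fold -0.96 ± 0.22). The falls included the receptor ETR2 with 14.4 and 19.2 CPM in hy5 Control, against 30.0 and 30.8 CPM in WT Control and the receptors EIN4 and ERS1 (-0.34 ± 0.084 and -0.33 ± 0.079), as well as EBF2, an F-box repressor of the pathway (-0.59 ± 0.10). The lower count was 3 without hy5 Control 1 and 2 without WT Control 2. In the reduced set 6 were higher and 3 lower, and with total scaling 7 were higher and 9 lower.

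Auxin-responsive genes were called higher more often than lower, 11 against 1 of 25 tested, with 5 higher without hy5 Control 1 or hy5 Control 2 and 6 without WT Control 2. The reduced set had 5 higher and 0 lower, and total scaling gave 7 higher and 2 lower. IAA5, an Aux/IAA repressor, had 2.42 and 2.17 CPM in hy5 Control, against 0.966 and 0.666 CPM in WT Control (log2 fold 1.48 ± 0.23), and IAA6 and IAA30 had log2 folds of 1.41 ± 0.39 and 1.12 ± 0.33. IAA19 had 24.6 and 22.01 CPM in hy5 Control, against 17.0 and 16.6 CPM in WT Control (log2 fold 0.47 ± 0.090). The auxin-conjugating enzymes GH3.5 and GH3.2 rose by 0.40 ± 0.076 and 0.68 ± 0.12. LBD16, which acts in lateral root initiation, had 10.1 and 9.19 CPM in hy5 Control, against 4.54 and 3.81 CPM in WT Control (log2 fold 1.20 ± 0.14), while its activators ARF7 and ARF19, at -0.10 ± 0.075 and 0.15 ± 0.081, were not called. Of 8 lateral root initiation genes 2 were higher (1 without hy5 Control 2 or either WT library) and 1 lower, the last being LBD33, whose call was lost without hy5 Control 2 or WT Control 2. That list had 1 higher and 0 lower in the reduced set and with DESeq2, and 1 higher and 1 lower with total scaling. Of 17 auxin transport genes 5 were higher (2 without hy5 Control 1 or WT Control 2, 3 without hy5 Control 2) and 1 lower (0 without hy5 Control 1, 3 without WT Control 2). Total scaling gave 3 higher and 4 lower, where over all genes tested it gave 2303 higher and 4263 lower. In the reduced set fewer auxin transport genes were called in either direction. The kinase gene WAG1 had 7.53 and 6.43 CPM in hy5 Control, against 3.599 and 3.55 CPM in WT Control (log2 fold 0.96 ± 0.15), and most carriers, PIN2 at 0.033 ± 0.079 and PIN3 at 0.024 ± 0.065 among them, were not called.

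Cytokinin genes also differed in the absence of BA. Of 10 type-A response regulators, the feedback repressors of cytokinin signalling, 2 were called higher and 0 lower (0 lower also with DESeq2 and at an unadjusted p under 0.05): ARR16 had 3.98 and 4.25 CPM in hy5 Control, against 1.64 and 1.81 CPM in WT Control (log2 fold 1.26 ± 0.16), and ARR15 was called at 0.66 ± 0.22 (adjusted p 0.0382), a call lost without hy5 Control 1 or either WT library. DESeq2, total scaling and the reduced set each had 1 higher. The others lay between -0.14 ± 0.11 (ARR3) and 0.74 ± 0.28 (ARR17). Of 23 metabolism and receptor genes 10 were higher (5 without hy5 Control 1 or hy5 Control 2, 4 without WT Control 2) and 1 lower. DESeq2 called 6 higher and 0 lower, total scaling gave 5 higher and 4 lower, and the reduced set had 5 higher and 0 lower. The cytokinin oxidase CKX4 had 10.8 and 11.1 CPM in hy5 Control, against 3.102 and 2.98 CPM in WT Control (log2 fold 1.85 ± 0.13), the largest difference of the list, and LOG1, an activating enzyme, had 50.5 and 56.9 CPM in hy5 Control, against 36.1 and 33.8 CPM in WT Control. The receptor genes AHK2, AHK3 and WOL, at -0.24 ± 0.091, -0.20 ± 0.073 and -0.12 ± 0.067, were not called.

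For gibberellin, the called genes of synthesis in the list were lower and the called genes of inactivation higher. GA3OX2 and GA20OX2, of synthesis, had log2 folds of -2.09 ± 0.41 and -1.16 ± 0.24, and both were below 2 CPM in all 4 libraries. Of 5 GA 2-oxidases in the list, which inactivate the hormone, 4 rose, with GA2OX6 at 267 and 273 CPM in hy5 Control, against 178 and 167 CPM in WT Control, GA2OX8 at 0.97 ± 0.19 and GA2OX4 at 1.15 ± 0.22 on the log2 scale, and GA2OX1, at -0.32 ± 0.22, was not called. GA2OX7, which the list does not hold and which was looked up after its values were seen, fell, with 0.643 and 0.745 CPM in hy5 Control, against 1.43 and 3.01 CPM in WT Control (log2 fold -1.66 ± 0.39). Among brassinosteroid genes BR6OX1, of synthesis, rose by 0.52 ± 0.15, and BRI1, BIN2, BZR1 and DWF4, with log2 folds from -0.14 ± 0.077 (BZR1) to 0.18 ± 0.069 (BRI1), were not called. In the whole list of 22 genes, 5 were higher and 4 lower (2 without hy5 Control 1 and in the reduced set). Abscisic acid and dehydration genes had 4 of 17 higher and 2 lower (3 and 3 with total scaling). RAB18, a dehydrin, had 13.6 and 16.8 CPM in hy5 Control, against 3.07 and 2.44 CPM in WT Control (log2 fold 2.46 ± 0.15). ABI5, a bZIP factor of the abscisic acid response, had 1.07 and 1.15 CPM in hy5 Control, against 2.31 and 2.44 CPM in WT Control (log2 fold -1.10 ± 0.20). The stress marker RD29A, at 1151 and 1156 CPM in hy5 Control, against 1029.9 and 1046 CPM in WT Control, was not called.

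For nutrients, most genes of uptake and assimilation did not pass the test, and the same held for 16986 of all 22682 genes tested. Of 32 nitrate and ammonium genes 7 were higher (4 without hy5 Control 2) and 5 lower (2 without hy5 Control 1 or WT Control 1, 3 without hy5 Control 2). The lower count was 3 in the reduced set and with DESeq2, and total scaling gave 6 higher and 8 lower. ASN1, an asparagine synthetase induced by low sugar and darkness, had 133 and 141 CPM in hy5 Control, against 19.9 and 24.5 CPM in WT Control (log2 fold 2.62 ± 0.088, adjusted p 6.15e-12), far above the next member, NRT2.5 at 0.93 ± 0.28. The nitrate transporter NRT1.1 had 292 and 268 CPM in hy5 Control, against 299 and 269.7 CPM in WT Control, the nitrate reductases NIA1 and NIA2 had log2 folds of 0.13 ± 0.076 and -0.13 ± 0.078, and the nitrite reductase NIR1 one of -0.10 ± 0.076, none called. NRT2.1, the high-affinity nitrate transporter known as a HY5 target, was at most 0.159 CPM in the 4 libraries and was not tested. LBD39, a repressor of nitrate responses, had 13.2 and 14.8 CPM in hy5 Control, against 29.1 and 33.9 CPM in WT Control (log2 fold -1.17 ± 0.12). GLU1, a ferredoxin-dependent glutamate synthase, had 1.78 and 2.67 CPM in hy5 Control, against 5.21 and 4.89 CPM in WT Control. ASN1 overlaps an annotated gene.

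The shares called over all genes tested were 13.7% higher and 11.4% lower. Of 13 phosphate genes 1 was higher, PHT1;8 with 3.89 and 4.31 CPM in hy5 Control, against 2.31 and 2.41 CPM in WT Control, and 0 lower in edgeR and DESeq2 (1 lower at an unadjusted p under 0.05 and with total scaling). Of 14 sulfate genes 3 were higher (1 without hy5 Control 2) and 2 lower, with the transporter SULTR2;2 at 5.999 and 6.86 CPM in hy5 Control, against 13.4 and 13.0 CPM in WT Control (log2 fold -1.04 ± 0.12) and SULTR2;1 at 59.8 and 57.8 CPM in hy5 Control, against 36.3 and 45.9 CPM in WT Control. Of 23 iron genes 3 were higher and 4 lower (2 without hy5 Control 1 or hy5 Control 2). The reduced set had 2 higher and 1 lower, and total scaling gave 2 higher and 6 lower. FRD3, which loads citrate into the xylem, had 27.8 and 29.6 CPM in hy5 Control, against 16.6 and 16.2 CPM in WT Control. The reductase FRO3 had 21.3 and 23.1 CPM in hy5 Control, against 36.4 and 32.5 CPM in WT Control. The uptake transporter IRT1, at 11.4 and 12.9 CPM in hy5 Control, against 14.95 and 5.84 CPM in WT Control, varied more between the WT libraries than between genotypes. Among sugar carriers, SWEET11 and SWEET12, which export sucrose, rose. SWEET11 had 26.7 and 30.0 CPM in hy5 Control, against 7.52 and 4.98 CPM in WT Control (log2 fold 2.17 ± 0.17). SWEET12 had 6.52 and 7.08 CPM in hy5 Control, against 2.05 and 1.55 CPM in WT Control (log2 fold 1.91 ± 0.29). The hexose carrier STP13 rose by 1.13 ± 0.088, and the sucrose carrier SUC1 fell by 0.62 on the log2 scale; without hy5 Control 2 or WT Control 1 the list had 2 lower genes in place of 1, and with total scaling 3.

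Root hair genes went both ways. Of 15 tested, 7 were lower and 4 higher (2 higher without hy5 Control 1 or WT Control 1). The wall gene LRX1, an extensin, had 10.5 and 10.9 CPM in hy5 Control, against 23.1 and 19.9 CPM in WT Control (log2 fold -1.01 ± 0.12). PRP3, a proline-rich wall protein, had 23.9 and 22.4 CPM in hy5 Control, against 46.8 and 39.9 CPM in WT Control (log2 fold -0.91 ± 0.098). The expansins EXPA7 and EXPA18 had log2 folds of -0.68 ± 0.12 and -0.66 ± 0.11. Among regulators, RSL4, which sets hair length, had 12.3 and 11.1 CPM in hy5 Control, against 5.82 and 5.39 CPM in WT Control (log2 fold 1.06 ± 0.13) and RHD6 rose by 0.55 ± 0.12, whereas RSL2 fell by 0.69. The genes for patterning, GL2, CPC and WER, were not called.

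Other expansin and aquaporin genes held large changes in both directions. EXPA1, an expansin outside the hair lineage, had 30.3 and 31.1 CPM in hy5 Control, against 121 and 134 CPM in WT Control (log2 fold -2.05 ± 0.090). EXPA8 had 12.1 and 10.8 CPM in hy5 Control, against 2.22 and 1.78 CPM in WT Control (log2 fold 2.51 ± 0.14). Among aquaporins, PIP2;3 had 96.5 and 98.8 CPM in hy5 Control, against 216 and 221 CPM in WT Control and PIP1;2 had 1248 and 1294 CPM in hy5 Control, against 668 and 634 CPM in WT Control; near-identical aquaporin copies can share reads, so each is uncertain. Of the 21 expansins and aquaporins 11 were higher (7 in the reduced set) and 3 lower.

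Among genes that mark root tissues, most of the xylem list was called. There, 8 of 11 marker genes were called higher and 0 lower (0 lower also with DESeq2 and at an unadjusted p under 0.05). The lack of lower calls did not hold in every run with 1 library left out. The higher count was 5 with DESeq2, 5 without hy5 Control 1, 3 without hy5 Control 2 or WT Control 2, and 3 in the reduced set. Their summed level was 691 and 692 CPM in hy5 Control, against 556 and 447 CPM in WT Control. XCP1, a protease of xylem cell death, had 226 and 219 CPM in hy5 Control, against 149 and 121 CPM in WT Control (log2 fold 0.72 ± 0.092). No marker of the list was at 0. The part of xylem cells in the other results was not tested.

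For phloem, 2 of 5 markers were higher and 0 lower, with sums of 299 and 315 CPM in hy5 Control, against 290 and 269 CPM in WT Control. For meristem and cap, 3 of 8 were higher and 0 lower, with sums of 115 and 109 CPM in hy5 Control, against 85.7 and 85.7 CPM in WT Control, and PLT3, a stem cell factor, had 76.7 and 77.3 CPM in hy5 Control, against 55.8 and 54.2 CPM in WT Control. No member of either list was lower with DESeq2 or at an unadjusted p under 0.05. The phloem count was 0 without hy5 Control 2 and 1 without WT Control 2, and the meristem count 1 without hy5 Control 1 or WT Control 2. In the reduced set they were 0 for phloem and 1 for meristem, with total scaling 0 for phloem, and with DESeq2 1 for meristem. Of 19 cell cycle genes 1 was higher (0 without hy5 Control 2) and 2 lower (1 without hy5 Control 2 or WT Control 1, and in the reduced set), and with total scaling 0 were higher and 3 lower. Over all genes tested 13.7% were called higher and 11.4% lower. The inhibitor KRP2 had 7.77 and 8.29 CPM in hy5 Control, against 12.7 and 12.2 CPM in WT Control (log2 fold -0.63 ± 0.11), and the mitotic cyclin CYCB1;1 had 10.2 and 8.91 CPM in hy5 Control, against 8.31 and 10.9 CPM in WT Control.

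In the endodermis, 3 of 11 Casparian strip genes were higher and 0 lower (1 lower at an unadjusted p under 0.05, 0 with DESeq2), with the regulator MYB36 at 51.7 and 55.4 CPM in hy5 Control, against 40.2 and 36.6 CPM in WT Control (log2 fold 0.48 ± 0.079); the other 2 calls, CASP1 and CASP2, were lost without hy5 Control 1, hy5 Control 2 or WT Control 2. The reduced set had 1 higher, and total scaling gave 2 higher and 1 lower. Of 17 suberin genes 3 were higher, GPAT7, MYB41 and GPAT5, with log2 folds of 0.98 ± 0.15, 0.74 ± 0.13 and 0.54 ± 0.12, and 5 were lower, led by the fatty acyl reductase gene AT5G22500 at -0.54 ± 0.068. The lower count was 1 without hy5 Control 2 or WT Control 1, and 3 with DESeq2.

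Hypoxia genes were lower in part, 7 of 12, with 0 higher in edgeR, DESeq2 or at an unadjusted p under 0.05. PCO2, an oxygen-sensing oxidase, had 0.643 and 1.18 CPM in hy5 Control, against 2.399 and 3.84 CPM in WT Control (log2 fold -1.77 ± 0.33). The sucrose synthase SUS4 had 36.7 and 41.4 CPM in hy5 Control, against 63.8 and 63.9 CPM in WT Control. ADH1, the alcohol dehydrogenase, at 48.5 and 54.9 CPM in hy5 Control, against 38.8 and 54.8 CPM in WT Control, was not called. The count was 2 without hy5 Control 1 and in the reduced set, and 4 without WT Control 2. Of 13 heat shock genes 8 were called higher by at most 0.46 on the log2 scale and 0 lower (also 0 with DESeq2 and at an unadjusted p under 0.05); 4 were higher without hy5 Control 1, 3 without hy5 Control 2 or WT Control 2, 3 in the reduced set and 5 with total scaling.

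In glucosinolate and ER body genes 8 of 24 were higher and 2 lower (1 without hy5 Control 1, hy5 Control 2 or WT Control 2). The reduced set had 7 higher and 0 lower, and total scaling gave 7 higher and 3 lower. BGLU22, a beta-glucosidase of the ER body family, had 1186 and 1076 CPM in hy5 Control, against 496 and 498 CPM in WT Control (log2 fold 1.19 ± 0.080). BGLU21, its close copy, had 1330.2 and 1148 CPM in hy5 Control, against 773 and 847 CPM in WT Control (log2 fold 0.61 ± 0.090). Their relative PYK10, at 4483 and 4375 CPM in hy5 Control, against 4663 and 4429 CPM in WT Control, was not called. The split of reads between BGLU21 and BGLU22 is uncertain. The chain-elongation genes MAM1 and BCAT4, of methionine-derived glucosinolates, rose by 0.50 ± 0.079 and 0.46 ± 0.084, and CYP79B3, of the indole branch, fell by 0.44.

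Calls were limited to genes whose log2 CPM averaged 1 or more over the 8 libraries and whose groups did not overlap in control medium. The 3 largest rises then lay outside these lists. All 3 belong to the defensin-like (DEFL) family. AT5G33355 had 47.6 and 49.4 CPM in hy5 Control, against 1.17 and 0.254 CPM in WT Control. AT1G34047 had 27.2 and 23.5 CPM in hy5 Control, against 1.02 and 0.412 CPM in WT Control. AT2G36255 had 38.8 and 36.8 CPM in hy5 Control, against 1.70 and 1.08 CPM in WT Control. Their log2 folds were 6.05 ± 0.27, 5.11 ± 0.30 and 4.75 ± 0.19; that of AT5G33355 was 7.56 without WT Control 1 and 5.37 without WT Control 2, and that of AT1G34047 was 5.93 without WT Control 1. The other rises of the leading 12, by the same limit, were AT4G33720, of the PR1-like CAP family (3.85 ± 0.44, and 4.48 without WT Control 2), the glucosyltransferase UGT76E1 (3.33 ± 0.17), the LEA gene AT3G15670 (3.15 ± 0.27), the lipase-like AT1G28660 (3.11 ± 0.18), the peroxidase PRX52 (2.98 ± 0.23), the acyl-activating enzyme AAE12 (2.98 ± 0.18), the oxygenase AT4G10500 (2.90 ± 0.15), AGL61 and TAT3. Of these, AT4G10500 had 79.1 and 72.4 CPM in hy5 Control, against 10.5 and 9.80 CPM in WT Control.

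Among the largest falls by the same limit outside the lists, AT5G57785, which encodes an uncharacterized protein, had 3 counts in hy5 Control and 866 in WT Control, a ratio of 285 (95% exact interval 97.2 to 1385, counting error only). MRD1 (mto 1 responding down 1) had 0.184 and 0.124 CPM in hy5 Control, against 20.3 and 23.7 CPM in WT Control (log2 fold -7.12 ± 0.22, adjusted p 2.24e-12). AT2G35260, a CAAX protease-like gene, and AT2G46420 had log2 folds of -6.02 ± 0.48 and -5.55 ± 0.38, and the major facilitator gene AT4G04750 had 0.245 and 0.279 CPM in hy5 Control, against 11.0 and 10.2 CPM in WT Control. Among the genes with the smallest p was ABCI21, an ABC protein, with 7.22 and 8.01 CPM in hy5 Control, against 73.7 and 67.6 CPM in WT Control. AT3G23530, annotated as a cyclopropane fatty acid synthase, had 6.09 and 6.15 CPM in hy5 Control, against 63.8 and 62.7 CPM in WT Control. AZI1, a lipid transfer-like protein of systemic immunity, had 3.46 and 3.91 CPM in hy5 Control, against 35.7 and 34.9 CPM in WT Control. No hy5 library reached a WT library in any of these genes. For the largest falls the rule of choice required this, and 63.0% of all genes tested also kept their groups apart. MRD1 overlaps 2 annotated genes.

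In all, 16 genes were at or under 0.5 CPM in both hy5 Control libraries and at 2 CPM or more in both WT Control libraries. They were MRD1, AT5G57785, AT2G35260, AT2G46420, AT4G04750, 4 photosystem genes of the list (PSAE-1, PSAE-2, PSAH-1 and PSBQA), the antenna gene Lhca5, the thylakoid curvature gene AT1G52220, the peroxidase gene AT5G47000, AT1G55673, AT2G34080, AT4G22460 and AT5G08050. The reverse held for 2 genes, AT1G53875 and AT2G44220. AT1G53875, of the LURP-one-like family, had 2.88 and 3.26 CPM in hy5 Control, against 0.0293 and 0.127 CPM in WT Control. AT2G44220, annotated as a NEP-interacting protein, had 2.42 and 3.07 CPM in hy5 Control, against 0.468 and 0.222 CPM in WT Control.

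The share of called genes was similar on each chromosome. Between 24.4% and 25.9% of tested genes were called on each of the 5 chromosomes. Within 100 kb of HY5, 9 of 43 tested genes were called (20.9%), and within 1000 kb 24.2%, near the 25.1% over all genes.

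The same genotype difference was measured in medium with BA, in 4 other libraries. All 8 libraries entered 1 estimate of the spread, so the calls in both media are not independent. With BA, 5321 genes (23.5%) were called, 2505 (11.0%) higher and 2816 (12.4%) lower. Called in both media and in the same direction were 3323 genes, 58.3% of the control calls and 62.5% of the BA calls, while 18 were called in opposite directions. Of the 1197 genes called at least 2-fold in control medium, 966 (80.7%) were called the same way with BA. For the 591 higher genes the median log2 fold was 1.37 in control medium and 1.03 with BA, and for the 606 lower genes -1.58 in control medium and -1.37 with BA; these genes were picked by their size in control medium, so the medians are given without a comparison. By list, 40 of 54 photosynthesis genes, 11 of 15 flavonoid enzymes and 21 of 45 light signalling genes were lower in hy5 BA than in WT BA, and 19 of 24 jasmonate genes were higher. For the chloroplast genome, 17 of 72 genes were lower with BA, and 48 of 72 in control medium; this difference between lists was not tested. The test of the difference between media (interaction) called 110 genes, 98 of them among the control calls. The control calls and this test share the control-medium libraries.

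**Figure D5:**
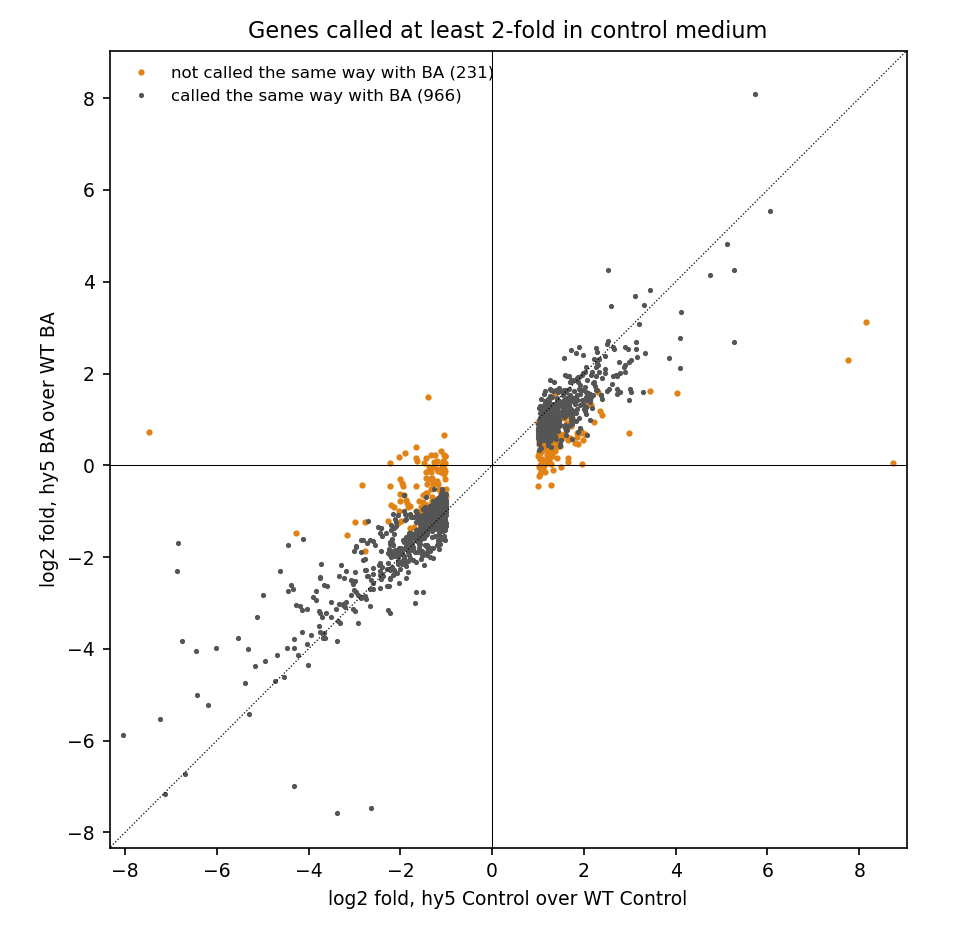
Log2 fold of hy5 BA over WT BA (vertical) against that of hy5 Control over WT Control (horizontal) for the 1197 genes called at least 2-fold in control medium; the dotted line marks equal folds. Grey points are the 966 genes called the same way with BA and orange points the other 231, most of them near 0 on the vertical axis.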

How the data were processed

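PolyA RNA of Arabidopsis thaliana roots was sequenced in 8 libraries, 2 in each of 4 groups of genotype and medium. The authors quantified transcripts with Salmon against TAIR10, per the submitters' processing notes, which give no Salmon version. The deposited files hold an estimated count per transcript, which is not normalized, and the authors' TPM, which is scaled within each library and was used here for description alone. No source states the kit's strand setting, so overlapping genes cannot be told apart; 57 of the 205 named genes and 1527 called genes overlap another annotated gene. Per library, 29928501 to 35289411 estimated counts were assigned.

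Estimated counts were summed over the transcripts of a locus, rounded to whole numbers and tested with edgeR 4.0.16 (R 4.3.3; quasi-likelihood, robust, TMM scaling), with 4 group means fitted to 8 libraries so that all groups share 1 estimate of the spread. Genes passed filterByExpr at a minimum count of 10, and 4946 were left out. CPM values use TMM-scaled library sizes, SE is the absolute log2 fold divided by the root of F, and the Benjamini-Hochberg adjustment ran over the 22682 genes tested. DESeq2 1.42.0 was an alternative. Tested on simulated counts for hy5 Control against WT Control (22682 genes), the procedure recovered 65.7% of 1.5-fold, 89.6% of 2-fold and 98.5% of 4-fold changes, with 3.43% false among calls. The simulation changed 67, 67 and 66 genes at these folds, against 5696 called in the data. Its spread followed the level alone, without differences between genes of like level. The 3.43% is therefore not the false share of the real calls. Gene symbols, positions and promoter sequences came from RefSeq for TAIR10.1, which held 27420 of the loci. Libraries of a group differed by more than counting noise, so none was counted as a duplicate. Intervals from counts cover counting error only.

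The gene lists (35, with 629 members, 4 of them marker lists) and the members described were chosen with earlier results of these data known. Named genes were HY5 and HYH; the 12 largest rises and 12 largest falls among calls whose mean log2 CPM reached 1 and whose groups stayed apart in all 4 libraries; the 10 smallest p; from every list, at most 6 called members by smallest p; and genes at or under 0.5 CPM in both libraries of 1 genotype and at 2 CPM or more in both of the other. Other list members named in the text were chosen after their values were seen.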

Additional observations from a re-analysis of the deposited data

Results flagged for a closer look

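For 9 named genes the genotype effect differed between media by the interaction term of the edgeR quasi-likelihood test, as the log2 fold with BA less that in control medium. These genes were named by their values in control medium, which enter the difference. That choice favours genes whose fold is smaller with BA. AAE12, an acyl-activating enzyme gene, differed by -1.55 (adjusted p 0.0393): its log2 fold of hy5 over WT was 1.42 with BA and 2.98 in control medium. RSL4, a regulator of root hair length, differed by -1.19 (adjusted p 0.0146), with -0.13 with BA and 1.06 in control medium. The ACC synthase genes ACS5 and ACS8 differed by -1.15 and -0.62 (adjusted p 0.0211 and 0.0411); their log2 folds were 0.58 and 0.70 with BA, and 1.73 and 1.32 in control medium. F6'H1, of coumarin synthesis, differed by -0.71 (adjusted p 0.0419), with 0.012 with BA and 0.72 in control medium. GA2OX2, a gibberellin-inactivating enzyme gene, differed by -0.65 (adjusted p 0.0335), with -0.26 with BA and 0.39 in control medium. NAI1, a regulator of ER bodies, differed by -0.53 (adjusted p 0.0373), with 0.0096 with BA and 0.54 in control medium. IAA13, an Aux/IAA gene, differed by -0.50 (adjusted p 0.0411), with -0.17 with BA and 0.33 in control medium. In the opposite direction, ATPC1, of the plastid ATP synthase, differed by 1.24 (adjusted p 0.0463), with -3.04 with BA and -4.28 in control medium. The folds of RSL4, GA2OX2 and IAA13 with BA were small and of the other sign. No test of these BA folds alone is given here, so they do not show a reversal. ATPC1 was lower in hy5 roots in both media.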

How the results depend on the processing

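HY5 kept its direction and call under every alternative run for it, with log2 folds of -5.27 to -5.08. With library size as the sole scaling 4263 genes were called lower and 2303 higher. Without hy5 Control 1 and hy5 BA 2 together, 3430 genes were called, 1351 of them lower. With 1 library left out, 3685 to 4655 genes were called, 2026 to 2699 higher and 1553 to 2110 lower; fewer samples were then fitted. The cause of the other differences was not tested. RLE scaling, no filter, a minimum count of 50, fitting the 4 control-medium libraries alone, an offset for effective length and DESeq2 gave 4394 to 5675 calls. Replicate numbers did not pair the samples: the correlation of same-numbered deviations between hy5 Control and WT Control was -0.107. With the replicate block 5300 genes were called, and with the numbers crossed, an alternative chosen after seeing the data, 5991. The calls shared by both media numbered 2622 with DESeq2 and 3121 with the replicate block, against 3323. The stomatal lineage gene TMM, which was not called, had a log2 fold of -0.037; it was 0.0912 without hy5 Control 1, 0.101 without hy5 Control 1 and hy5 BA 2, and -0.19 to 0.0912 with 1 library left out. Among the 205 named genes, at least 42, TMM included, lost their call or changed sign in at least 1 alternative. The greening regulator not called with DESeq2 is not among these 42. Counts of 10 or so per library, as for GNC and DFR, limit what can be seen of weakly expressed genes.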

Other observations

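Genes with the same annotated product, counted after their values were seen, showed further groups in control medium, against 13.7% of all tested genes called higher in hy5 Control and 11.4% called lower. Of 39 Calcium-binding EF-hand family genes 17 were called higher and 0 lower, and of 64 genes annotated as Integrase-type DNA-binding, the family of AP2/ERF transcription factors, 26 were higher and 8 lower. Of 123 Cysteine/Histidine-rich C1 domain genes 43 were higher and 7 lower, with a median log2 fold of 0.21. Of 15 LURP-one-like genes and 15 terpenoid cyclase genes, 8 of each were higher and 0 lower. Peroxidases went both ways, with 21 of 57 higher and 15 lower. Disease resistance genes of the CC-NBS-LRR class went down instead, with 10 of 23 lower and 0 higher and a median log2 fold of -0.23. These counts are by edgeR's quasi-likelihood test, and members of a family are not independent of one another.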
